A study of Mus musculus with 9 samples.

Results

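The galectin family was followed in mouse embryonic stem cells that had lost Taz or both Yap and Taz. The members were the 7 rows of the 38940-gene expression table named Lgals1, Lgals2, Lgals3, Lgals4, Lgals7, Lgals8 and Lgals9. They were taken by gene symbol. The family was chosen by measured values, because Lgals1 and Lgals9 were already known to be higher in these data after loss of Yap. Values of the double KO libraries against either other group therefore describe the choice and carry no test. Only Taz KO against control was tested for the members.

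The 9 RNA-seq libraries formed 3 groups of 3. By title and description, Yap/Taz double KO cells had both genes deleted, Taz KO cells had Taz deleted with floxed Yap, and control cells had floxed Yap and floxed Taz. The genotype field, however, gives double KO and Taz KO libraries an identical entry, and the titles and descriptions were followed. All lines are described as carrying a tamoxifen-inducible Cre-ERT2 transgene under the CAG promoter, inserted by piggyBac transposition, with recombination induced by 500 nM 4-OHT. Whether the control cells received 4-OHT, and whether a line was a clone or a pool, is not given in the sources used here. Cells grew on fibronectin in N2B27 medium with 4 ng/ml Lif, 0.4 µM of the MEK inhibitor PD0325901 and 3 µM of the GSK3 inhibitor CHIR99021 (2i/Lif), which holds stem cells in a naive state.

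Galectins are small soluble lectins that bind β-galactosides, chiefly N-acetyllactosamine on N-glycans. Prototype galectins (galectin-1, galectin-2 and galectin-7) have a lone carbohydrate-recognition domain, galectin-3 joins its domain to a proline- and glycine-rich tail, and tandem-repeat galectins (galectin-4, galectin-8 and galectin-9) hold a pair of domains on a single chain. They are made in the cytosol and leave the cell without a signal peptide, crosslink glycoproteins outside it, and mark damaged endosomes and lysosomes inside it. YAP and TAZ, the co-activators switched off by the Hippo pathway, work through TEAD transcription factors.

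The family is spread over 5 chromosomes in the mouse (GENCODE M21 on GRCm38). Lgals1 (chromosome 15, 78926725 to 78930465, plus strand) and Lgals2 (78850860 to 78855529, minus strand) lie on the same chromosome. Lgals4 (chromosome 7, 28833854 to 28841708) and Lgals7 (28863853 to 28866284) are neighbours on the plus strand, 22145 bases apart. Lgals3 is on chromosome 14 (47367751 to 47386160, plus strand), Lgals8 on chromosome 13 (12439415 to 12464944, minus strand) and Lgals9 on chromosome 11 (78962974 to 78984946, minus strand). The longest annotated coding length followed the protein types. It was 405 bases for Lgals1, 390 for Lgals2 and 408 for Lgals7, 792 for Lgals3, and 978, 975 and 1059 for the tandem-repeat genes Lgals4, Lgals8 and Lgals9. Of all distinct 75-base stretches of their transcripts, those of 6 members were shared with no other annotated gene. For Lgals8, 2.53% were shared, 82 of them with Heatr1, which overlaps it on the opposite strand. Genes outside this annotation could not enter the check. The strand setting of the authors' counting is not given in the sources used here, so reads of overlapping genes cannot be told apart.

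Promoter sequence from RefSeq (GRCm38.p6) was found for 6 of the 7 members, all but Lgals1. The 250 bases before an annotated start are printed for Lgals9, Lgals3 and Lgals8, those of the 6 whose double KO values lay above all control values. They read 5′ to 3′ on the gene's strand, and capitals mark a GC box (GGGCGG on either strand). The RefSeq starts of Lgals3, Lgals7, Lgals8 and Lgals9 lie inside the GENCODE gene spans, so the windows do not cover every annotated start.
Lgals9: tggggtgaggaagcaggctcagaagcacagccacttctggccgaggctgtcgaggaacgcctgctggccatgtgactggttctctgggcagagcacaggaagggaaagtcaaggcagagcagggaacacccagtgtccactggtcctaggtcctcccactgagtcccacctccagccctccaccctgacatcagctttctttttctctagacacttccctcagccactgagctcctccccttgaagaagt
Lgals3: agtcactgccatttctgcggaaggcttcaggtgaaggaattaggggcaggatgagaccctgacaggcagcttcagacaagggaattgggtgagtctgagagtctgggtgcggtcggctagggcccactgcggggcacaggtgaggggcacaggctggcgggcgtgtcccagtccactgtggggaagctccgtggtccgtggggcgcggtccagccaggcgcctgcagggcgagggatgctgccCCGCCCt
Lgals8: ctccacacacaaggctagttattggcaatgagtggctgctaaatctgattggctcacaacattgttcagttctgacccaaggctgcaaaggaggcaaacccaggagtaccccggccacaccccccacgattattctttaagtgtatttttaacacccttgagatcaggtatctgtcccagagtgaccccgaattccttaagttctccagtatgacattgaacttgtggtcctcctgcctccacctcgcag
The windows are chr11:78984925-78985174 (minus), chr14:47373610-47373859 (plus) and chr13:12461739-12461988 (minus). The TEAD motif GGAATG, the AP-1 motif TGANTCA, the STAT motif TTCNNNGAA, the E-box CACGTG and the TATA motif TATAAA, searched on both strands, were in none of the 6 members' windows. Among all 32851 RefSeq promoter windows of this length, 12.6% held the TEAD motif, 6.75% the AP-1 motif, 7.02% the STAT motif, 6.02% the E-box and 12.4% the TATA motif. A GC box, present in 32.7% of windows, stood at position -7 in Lgals3 and -197 in Lgals7, counted from the start. The windows differed in base composition, from 66% G and C in Lgals3 to 58.4% in Lgals9 and 49.2% in Lgals8. No match says only that these letters are not in these windows.

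Expression was given by the authors as FPKM, fragments per kilobase of gene, which allows levels of different genes to be compared per length. The scaling between libraries matched a median-of-ratios size factor and not the summed reads. The reads behind the values summed to 19139802 to 23992020 per library. Yap1, the targeted gene, was at 4.14, 3.98 and 4.62 FPKM in double KO libraries, 18.6, 17.9 and 18.5 in Taz KO and 18.1, 18.1 and 19.1 in control. It was thus lower in every double KO library (limma log2 fold change against control -2.00, SE 0.07, adjusted p = 3.75e-06). Wwtr1, which encodes TAZ, averaged 13.9 ± 0.77 FPKM in double KO, 10.8 ± 1.58 in Taz KO and 12.1 ± 0.85 in control (SD, n = 3 each). A whole-gene value need not show a deleted exon, so Wwtr1 does not check the Taz deletion. The libraries numbered 2 stood apart in double KO and Taz KO, and less clearly in control, where libraries 1 and 3 also differed. Galectin values are therefore also given without the libraries numbered 2. All 10 embryonic stem cell markers listed were expressed in every group. Their summed FPKM was 2725 to 2939 in double KO, 4275 to 4649 in Taz KO and 5107 to 5430 in control, and Dppa5a averaged 1139, 2575 and 3261 FPKM in these groups. In double KO cells limma called Sox2, Nanog, Klf4, Dppa5a and Tdgf1 lower and Zfp42, on chromosome 8, higher against control. The first 4 were also called lower against Taz KO. Pou5f1, Utf1, Esrrb and Fbxo15 were called in neither comparison. Their log2 fold changes against control were -0.20, -0.51, 0.06 and 0.08. Over all tested genes 12.9% were called lower and 12.4% higher against control, and 7.45% lower against Taz KO.

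In every group Lgals1 was the main galectin transcript and the others were minor. Lgals1 made up 87.9% ± 1.1 of the family's summed FPKM in double KO cells, 80.2% ± 2.7 in Taz KO and 81.1% ± 2.0 in control (SD, n = 3 each). The summed family was at 217, 194 and 235 FPKM in the double KO libraries, against 54.7, 83.9 and 63.9 in Taz KO and 55.5, 65.5 and 50.4 in control. Without Lgals1, the other 6 members summed to 26.3 ± 4.93 FPKM in double KO, 13.1 ± 0.97 in Taz KO and 10.7 ± 0.28 in control. Both sums were higher in each double KO library than in any other library. Lgals1 and Lgals9 led to the choice of the family, and the sum without Lgals1 still holds Lgals9. Nothing is therefore read from either sum.

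**Figure D1:**
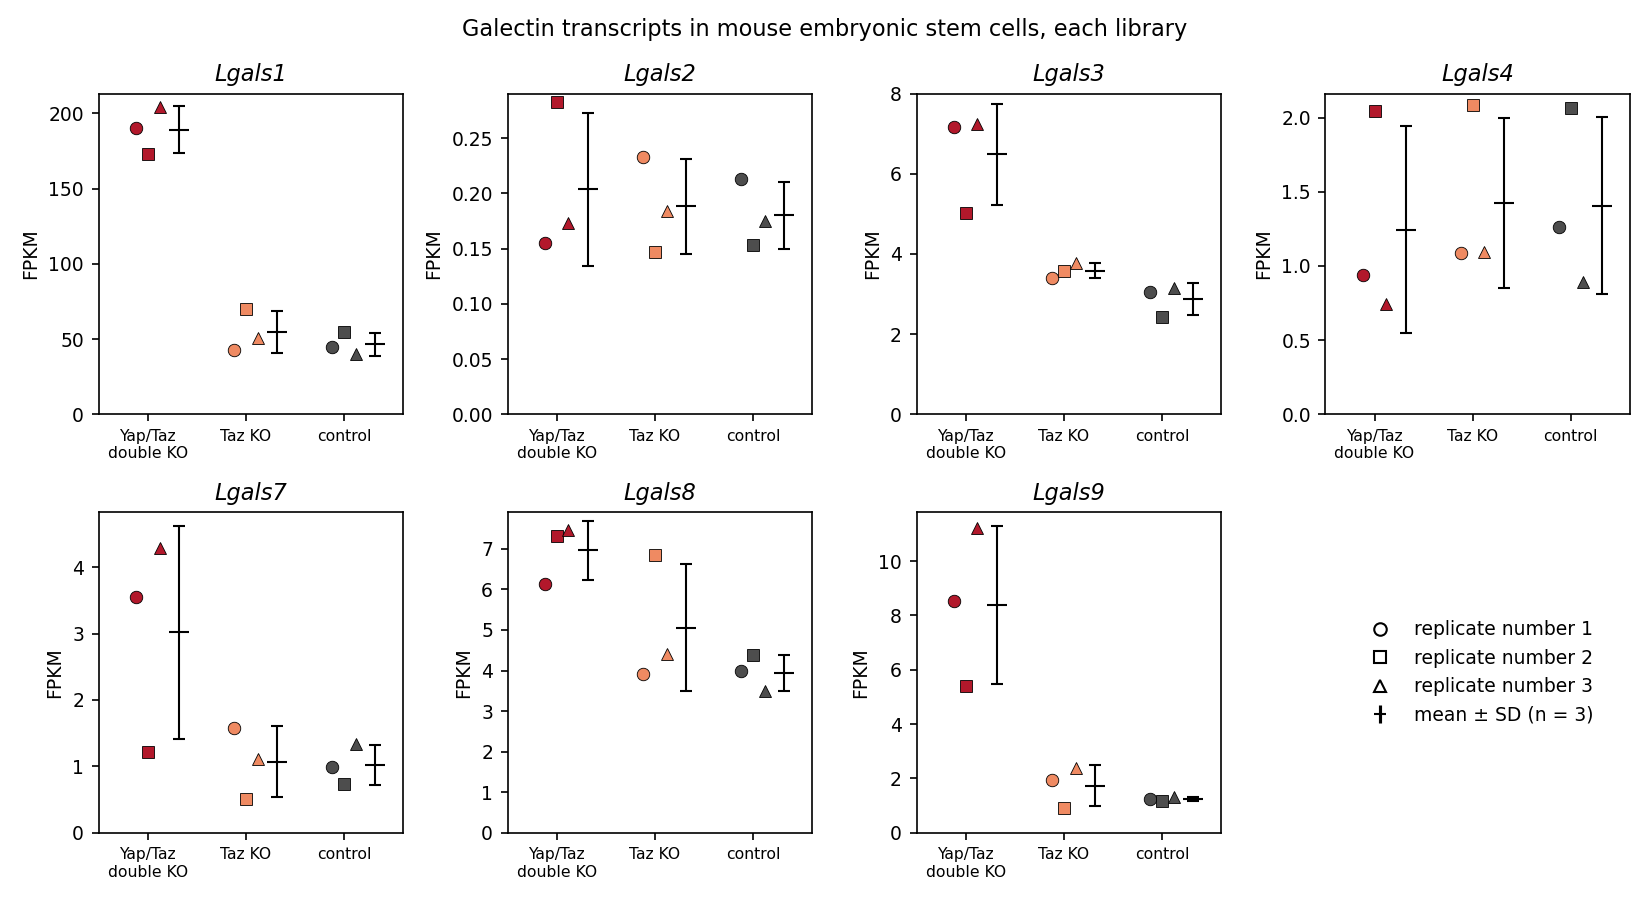
FPKM of the 7 galectin genes in each library, by group, with the marker shape giving the replicate number and the bar the mean ± SD of 3 libraries; each vertical axis is linear and starts at 0. Lgals1, Lgals3 and Lgals9 in double KO lie above all other libraries, and Lgals4 is highest in the library numbered 2 of every group.

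Among the prototype galectins, Lgals1 encodes galectin-1, which crosslinks integrins, laminin and other glycoproteins at the cell surface. Lgals1 was at 190.4, 173 and 204 FPKM in the double KO libraries, 42.6, 69.8 and 50.9 in Taz KO and 44.8, 54.6 and 40.0 in control, from 622 to 3325 reads. The double KO values did not overlap with either other group, whereas Taz KO and control values overlapped. The mean was 4.07 times that of control and 3.47 times that of Taz KO. On the log2(FPKM + 0.5) scale these differences were 2.02 and 1.81 (SE 0.18 each). In double KO cells Lgals1 exceeded 98.3% of the tested genes in FPKM, against 90.2% in Taz KO and 88.5% in control.

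Lgals7 encodes galectin-7, known from stratified epithelia. It was at 3.56, 1.22 and 4.29 FPKM in double KO, 1.58, 0.516 and 1.12 in Taz KO and 0.995, 0.730 and 1.33 in control, on 11 to 78 reads. The groups overlapped, because double KO library 2 lay below Taz KO library 1 and control library 3. Within each replicate number double KO exceeded Taz KO by 2.25, 2.36 and 3.85 times, in the order of numbers 1 to 3. It exceeded control by 3.58, 1.67 and 3.22 times. These comparisons entered the choice of the family, so nothing is read from the ratios. The antisense gene Gm10648, which overlaps Lgals7 on the opposite strand, was not analysed here.

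Lgals2, whose galectin-2 is known from the digestive tract, was close to the limit of detection. It was listed between 0.147 and 0.283 FPKM in all libraries, which was 2 to 4 reads in each, so no difference between groups was detectable at this depth. It was the only member below the mean of 1 FPKM required for testing. In a fit without that filter, its log2 fold change for Taz KO against control was 0.02 (SE 0.09, limma adjusted p = 1).

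Galectin-3, the chimera type encoded by Lgals3, is a macrophage antigen and is recruited to damaged lysosomes. Lgals3 was at 7.18, 5.03 and 7.24 FPKM in double KO, 3.40, 3.58 and 3.78 in Taz KO and 3.05, 2.43 and 3.16 in control. All 3 groups were separate from each other, in the order double KO, Taz KO, control. The double KO mean was 2.25 times that of control and 1.81 times that of Taz KO, with log2 differences of 1.04 and 0.76 (SE 0.15 each). Genes of chromosome 14 as a whole were shifted: their median log2 fold change was 0.11 for double KO against control and 0.10 for Taz KO against control, but 0.00 for double KO against Taz KO. In the same comparisons Dlgap5, the coding gene 1619 bases beyond Lgals3, was at 0.14, 0.32 and -0.18 on the log2 scale (limma adjusted p = 0.228, 0.110 and 0.177). The part of the chromosome 14 shift in the Lgals3 values was not tested.

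Of the tandem-repeat galectins, Lgals9 encodes galectin-9, a ligand of the immune receptor TIM-3 that also acts at damaged lysosomes. Lgals9 was at 8.53, 5.39 and 11.2 FPKM in double KO, 1.93, 0.916 and 2.37 in Taz KO and 1.26, 1.18 and 1.33 in control, on 45 to 470 reads. All double KO libraries were above all others, while the Taz KO values fell on both sides of control. The double KO mean was 6.68 times that of control and 4.82 times that of Taz KO (log2 differences 2.28 and 1.99, SE 0.30 each). By these differences Lgals9 ranked 11 and 10 from the top of the 11674 tested genes, and Lgals1 ranked 18 and 16. The rise of these genes led to the choice of the family, so the ranks restate that choice.

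Lgals8 encodes galectin-8, a sensor of damaged vesicles known from human cells. Its levels were 6.14, 7.31 and 7.46 FPKM in double KO, 3.92, 6.84 and 4.40 in Taz KO and 3.98, 4.38 and 3.49 in control. Double KO lay above control throughout, but Taz KO library 2 fell within the double KO range. The mean was 1.76 times that of control and 1.38 times that of Taz KO (log2 differences 0.75 and 0.46, SE 0.18 each). Heatr1, which overlaps Lgals8, was at 30.8 ± 6.12 FPKM in double KO, 37.2 ± 6.69 in Taz KO and 38.6 ± 3.46 in control, with log2 fold changes of -0.34 and -0.27 in the same comparisons (limma adjusted p = 0.186 and 0.33).

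Lgals4, whose galectin-4 is known from intestinal epithelium, did not separate the groups. It was at 0.942, 2.04 and 0.745 FPKM in double KO, 1.09, 2.09 and 1.09 in Taz KO and 1.26, 2.06 and 0.894 in control, on 32 to 107 reads. The highest library was number 2 in each group, and these 3 libraries were all at 2.04 to 2.09 FPKM. Its neighbour Lgals7 had the opposite order, with number 2 lowest in each group.

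The order of the galectins by level also differed between groups. In double KO it was Lgals1, Lgals9, Lgals8, Lgals3, Lgals7, Lgals4 and Lgals2, and the values of Lgals9, Lgals8 and Lgals3 overlapped. Taz KO cells had the order Lgals1, Lgals8, Lgals3, Lgals9, Lgals4, Lgals7, Lgals2. Control cells had Lgals1, Lgals8, Lgals3, Lgals4, Lgals9, Lgals7, Lgals2, in which Lgals8 was above Lgals3 in all 3 libraries while Lgals4, Lgals9 and Lgals7 overlapped. Lgals9 thus had rank 2 of 7 in double KO, 4 in Taz KO and 5 in control.

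Counted over the 6 members that passed the filter, all double KO values lay above all control values for 4 (Lgals1, Lgals3, Lgals8 and Lgals9), as they did for 21.7% of all tested genes. Against Taz KO the count was 3 (Lgals1, Lgals3 and Lgals9), with 14.1% of all tested genes. Both comparisons entered the choice of the family, so nothing is read from these counts. Over all tested genes the median log2 fold change was -0.02 and -0.04.

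**Figure D2:**
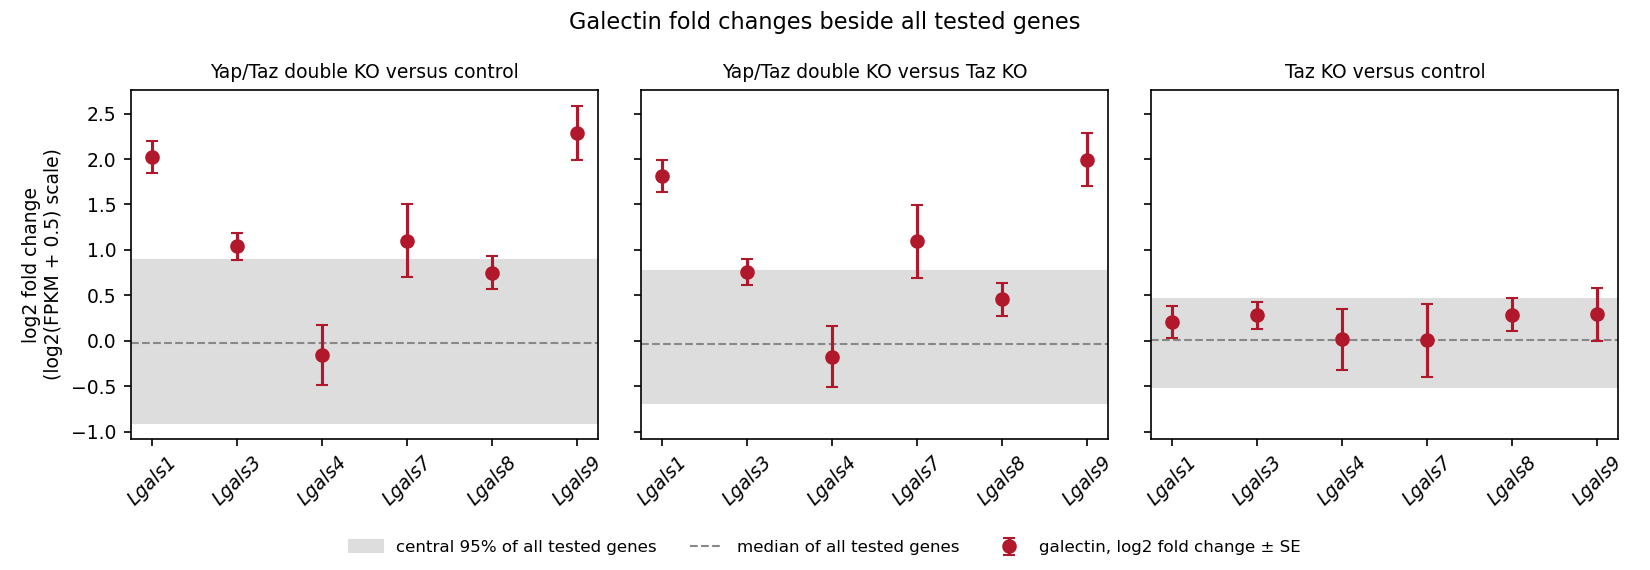
Log2 fold change ± SE of the 6 tested galectins in each comparison, on the log2(FPKM + 0.5) scale, over the central 95% of all 11674 tested genes (grey band) and their median (dashed line). Lgals1 (2.02 and 1.81), Lgals7 (1.10 and 1.10) and Lgals9 (2.28 and 1.99) lie above the band in both double KO comparisons and Lgals3 (1.04) in that with control, while the points of all 6 lie inside it for Taz KO against control.

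Loss of Taz alone, the comparison that the choice of members did not use, gave no galectin call. All Taz KO values lay above all control values for 1 of 6 members, Lgals3, and for 10.9% of all tested genes. The limma fit called 0 of 6 members, with 0 at an unadjusted p under 0.05, where 1.28% of all tested genes were called, 0.72% higher and 0.565% lower. Voom on the recovered reads also called 0, with 0 at an unadjusted p under 0.05. The log2 fold changes were 0.21 for Lgals1 (95% interval -0.20 to 0.62), 0.28 for Lgals3 (-0.05 to 0.61), 0.29 for Lgals8 (-0.12 to 0.70) and 0.29 for Lgals9 (-0.38 to 0.96). Their limma adjusted p-values were 0.795, 0.508, 0.624 and 0.848. Within replicate numbers only Lgals3 was higher in Taz KO than in control in all 3 (1.12, 1.47 and 1.20 times). The share of all tested genes with this pattern was not computed. With the replicate number as a block, limma also called 0 of 6 members, with an adjusted p of 0.125 for Lgals3. Lgals4 and Lgals7 were at 0.02 and 0.01 with wide intervals, -0.74 to 0.77 and -0.90 to 0.92 (limma adjusted p = 0.996 and 0.998). A change of Lgals9 of up to 0.96 on the log2 scale is within its interval, so Taz KO and control are not shown to be alike.

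Replicate number touched several members (plot of the deviation of the library numbered 2). On the log2 scale, library 2 differed from the mean of libraries 1 and 3 by -0.80 in double KO, -0.90 in Taz KO and -0.09 in control for Lgals9. For Lgals7 these differences were -1.36, -0.85 and -0.43, and for Lgals4 they were 0.92, 0.70 and 0.71. Over all tested genes the SD of this deviation was 0.40 in double KO, 0.39 in Taz KO and 0.27 in control. Without the 3 libraries numbered 2, the log2 difference of double KO from control was 2.21 for Lgals1, 1.10 for Lgals3, 1.41 for Lgals7, 0.78 for Lgals8, 2.52 for Lgals9 and -0.23 for Lgals4. That of Taz KO from control was 0.56 for Lgals9 (limma adjusted p = 0.108), compared with 0.29 over all libraries.

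**Figure D3:**
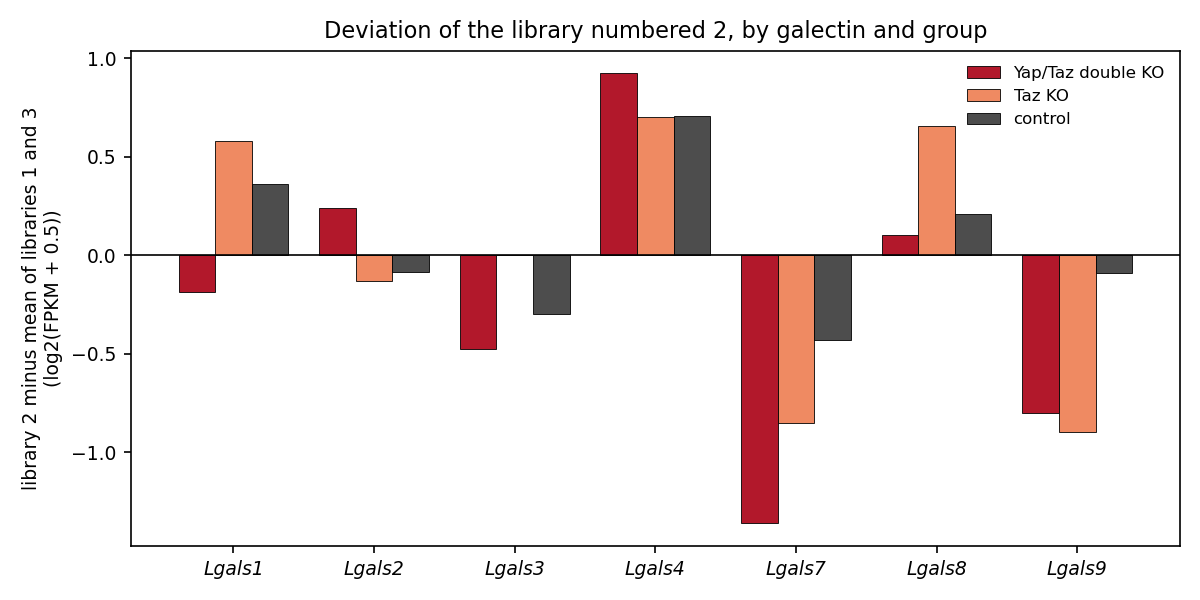
Log2(FPKM + 0.5) of the library numbered 2 minus the mean of libraries 1 and 3 of the same group, for each galectin; bars are single differences with no error. Lgals7 and Lgals9 are below 0 and Lgals4 and Lgals8 above 0 in all 3 groups.

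Within replicate numbers double KO was higher in every number for 5 members and lower in every number for Lgals4, in both comparisons. These comparisons entered the choice of the family, and the share of all tested genes with such a pattern was not computed. Nothing is therefore read from the count. Double KO exceeded control in all 3 numbers for Lgals1 (4.25, 3.17 and 5.10 times), Lgals3 (2.35, 2.07 and 2.29), Lgals8 (1.54, 1.67 and 2.14) and Lgals9 (6.79, 4.56 and 8.46), as well as for Lgals7. It also exceeded Taz KO in all 3 numbers for these 5, by 2.48 to 4.47 times for Lgals1, 1.41 to 2.11 for Lgals3 and 4.42 to 5.89 for Lgals9. The Lgals8 ratios were 1.56, 1.07 and 1.70, so the libraries numbered 2 were nearly equal. Lgals4 was lower in double KO than in control in each number, by ratios of 0.745, 0.990 and 0.834.

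The genes next to the galectins were examined for differences at the same positions. Ksr1, a scaffold of the RAS-MAPK pathway 28494 bases beyond Lgals9, was at 3.799, 3.13 and 3.15 FPKM in double KO, 1.67, 1.86 and 1.82 in Taz KO and 1.57, 1.56 and 1.32 in control. It rose in double KO, with log2 fold changes of 0.96 against control and 0.76 against Taz KO (SE 0.11 each, limma adjusted p = 0.00085 and 0.00527). Nos2, 2720 bases from Lgals9 on the other side, was under 0.1 FPKM on average in every group. Beside Lgals1, Pdxp fell against control (log2 fold change -0.42, limma adjusted p = 0.0296) and Nol12 was at -0.18 (limma adjusted p = 0.36). Next to Lgals4, the mitochondrial enzyme gene Ech1 fell by 0.40 on the log2 scale against control and by 0.43 against Taz KO (limma adjusted p = 0.0044 and 0.00736). Gga1, Card10 and Cdc42ep1 at Lgals2, and Mapk1ip1l beside Lgals3, were not called in any comparison, nor were Dlgap5 and Heatr1. Capn12, Edaradd and Actn2 were below the filter. Over all tested genes 25.3% were called in double KO against control and 13.9% against Taz KO.

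The galectins' patterns over the 9 libraries were compared with each other and with all tested genes by Pearson correlation of log2(FPKM + 0.5). The 9 points share the group differences and replicate numbers, so the coefficients describe these libraries. Lgals9 followed Lgals3 at 0.95, Lgals1 at 0.90 and Lgals7 at 0.89, and Lgals1 followed Lgals3 at 0.90 and Lgals8 at 0.88. Lgals4 ran against Lgals7 (-0.77) and was near 0 with Lgals1 (-0.09). The 5 genes most like Lgals1 were Cln3 (0.99), Wdr81 (0.99), Tmem127 (0.99), Pgap1 (0.99) and Grn (0.99). Cln3 averaged 10.7 FPKM in double KO, 5.48 in Taz KO and 5.18 in control, and Grn, which encodes progranulin, 115, 72.8 and 65.5. For Lgals9 they were Madd, Ccrn4l, Rela, Mafg and Erap1 (0.99 each), among which Rela, the NF-kB subunit p65, averaged 15.6, 11.7 and 11.5 FPKM. Lgals3 was closest to Kirrel, Brpf3, Capn1, Hmgn5 and Zfp963 (0.98 to 0.99), and Lgals8 to Gm15800, Epb4.1l1, Uap1l1, Notch2 and Cep350 (0.98 to 0.99).

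Other genes of the galectin type were low or level. Lgalsl, the galectin-like gene, was the only listed relative that passed the filter. It was at 7.40, 6.51 and 7.53 FPKM in double KO, 7.47, 6.80 and 7.96 in Taz KO and 6.85, 7.37 and 7.26 in control, and neither limma nor voom called it in any comparison, with an unadjusted p under 0.05 in 0 of the 3. Lgals3bp, the secreted galectin-3-binding glycoprotein, had 47, 84 and 42 reads in double KO, 12, 13 and 0 in Taz KO and 18, 19 and 4 in control, and its mean over the 9 libraries was below the filter. Without the filter, its log2 fold change was 0.99 against control and 1.16 against Taz KO (SE 0.20 each, limma adjusted p = 0.0196 and 0.0206). In these comparisons that fit called 2671 and 1266 of 24621 genes, 1355 and 671 of them higher. Lgals12 and Grifin were at 21 reads or fewer in every library. Lgals6 was also listed but had no row in the expression table, so it could not be assessed.

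Glycoproteins that galectins bind, with laminins and their receptors, included rises and falls in double KO cells. Of 40 listed genes 28 were tested, and 6 rose and 6 fell against control, where 25.3% of all tested genes were called (12.4% higher and 12.9% lower). Quantile normalization gave 7 rises and 3 falls. The 6 rises became 2 without control library 1 and 3 without double KO library 3, with 6 falls in both fits. The median log2 fold change of the 28 was 0.04. The laminin receptor gene Bcam fell most, to 8.45 ± 2.15 FPKM in double KO, against 66.2 ± 7.10 in control (SD, n = 3 each; log2 fold change -2.92, SE 0.16, limma adjusted p = 2.42e-05). Lamb1, the laminin β1 chain, fell by 1.08 and Hspg2, the proteoglycan perlecan, by 0.85 on the log2 scale (limma adjusted p = 0.000339 and 0.00491). The adhesion molecule gene Ceacam1 rose to 3.36 ± 0.43 FPKM, against 1.01 ± 0.30 in control (log2 fold change 1.37, limma adjusted p = 0.00219), although its close relative Ceacam2 could share reads with it. Lamp1, a heavily glycosylated protein of the lysosomal membrane, rose to 444 ± 12.3 FPKM, against 256 ± 18.6 in control (0.80, limma adjusted p = 0.000594). Lamp1 lies on chromosome 8, where 36.7% of 671 tested genes were called higher against control and the median log2 fold change was 0.30. Of the 6 rises, 3 were on chromosome 8. The insulin receptor gene Insr, also on chromosome 8, was at 0.68 (limma adjusted p = 0.0385), a call lost in 7 of 9 fits without 1 library, with an adjusted p of up to 0.117. With the replicate number as a block, 11 of the 28 rose and 9 fell.

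Against Taz KO, 3 of the 28 rose and 4 fell, where 13.9% of all tested genes were called, 6.42% higher and 7.45% lower (median log2 fold change of the 28, 0.06). Quantile normalization gave 4 rises and 3 falls. Bcam fell by 2.44 and Slc3a2, the heavy chain of the CD98 amino acid transporter, by 0.50 on the log2 scale (limma adjusted p = 0.00018 and 0.00317), and Ceacam1 rose by 1.18 (limma adjusted p = 0.00866). Lamp1 was at 0.41 and the tetraspanin gene Cd63 at 0.41 (limma adjusted p = 0.0187 and 0.0307). Of the 9 fits that each leave out 1 library, 4 lost the Lamp1 call, 6 the Cd63 call and 2 that of Lamb1 (-0.47, limma adjusted p = 0.0206). The 7 calls became 3 without Taz KO library 1 or double KO library 1 and 4 without Taz KO library 3 or double KO library 3. With the replicate block 8 rose and 10 fell, and without the libraries numbered 2, 8 rose and 9 fell. Itgb1, the integrin β1 gene on chromosome 8, rose in Taz KO against control (0.59, limma adjusted p = 0.0434) and Lamb1 fell (-0.61, limma adjusted p = 0.0287), the 2 calls among the 28, whose median was -0.04. The median of all chromosome 8 genes in this comparison was 0.35. Both calls were lost without control library 1 or 2, without any of the Taz KO libraries, or without double KO library 1, and the Itgb1 call also without double KO library 3. The block gave 5 rises and 4 falls.

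Enzymes that build galectin ligands were called about as often as all tested genes. Of 47 listed genes 38 were tested, and 4 rose and 4 fell in double KO against control (median 0.03). This was 21.1% called, beside 25.3% of all tested genes. St6gal1, whose α2,6-sialic acid caps block galectin-1 binding, rose to 2.36 ± 0.41 FPKM, against 1.04 ± 0.13 in control (log2 fold change 0.89, SE 0.18, limma adjusted p = 0.0095). Mgat4b, which adds a branch to N-glycans, rose by 0.74 (limma adjusted p = 0.000544). Mgat3, which adds the bisecting N-acetylglucosamine, fell to 2.48 ± 1.07 FPKM, against 5.45 ± 0.63 in control (-1.05, limma adjusted p = 0.0125). The galactokinase gene Galk1 fell by 0.81 and the Golgi mannosidase gene Man2a1 by 0.74 (limma adjusted p = 0.00283 and 0.00487), and B4galt6 was at -0.58 (limma adjusted p = 0.0322, lost in 4 of 9 fits without 1 library).

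Against Taz KO, 4 of the 38 rose and 1 fell (median -0.02), 13.2% called beside 13.9% of all tested genes. St6gal1 had a log2 fold change of 0.94 (limma adjusted p = 0.0142), B4galt1, the galactosyltransferase that completes N-acetyllactosamine, 0.40 (0.0111), St3gal3 0.38 (0.0192) and Mgat4b 0.36 (0.0207), while Galk1 fell by 0.68 (0.0119). The count of 5 became 2 without Taz KO library 1 or double KO library 3 and 3 without Taz KO library 3, and only the Galk1 call was kept in all 9 such fits. The replicate block gave 6 rises and 6 falls, and the fit without the libraries numbered 2 gave 6 rises and 5 falls. Quantile normalization gave 4 rises and 3 falls. In Taz KO against control limma called 0 of the 38, with 5 at an unadjusted p under 0.05, and voom called 0 with 4. The block gave 4 rises and 1 fall.

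Genes that act on damaged vesicles and lysosomes, where galectin-3, galectin-8 and galectin-9 are known to gather, were called mostly in the upward direction. Of 34 listed genes 32 were tested, and 11 rose and 2 fell in double KO against control, with a median log2 fold change of 0.20 beside -0.02 over all tested genes, of which 12.4% were called higher and 12.9% lower. Of the 11 rises, 3 were on chromosome 8, whose tested genes had a median of 0.30, and 8 were elsewhere. Sqstm1, the autophagy receptor p62, was at 128, 189.6 and 135 FPKM in double KO, 49.2, 56.3 and 48.7 in Taz KO and 49.9, 49.6 and 47.9 in control. Its double KO values were separate from both other groups (log2 fold change 1.59 against control and 1.53 against Taz KO, SE 0.14 each, limma adjusted p = 0.000238 and 0.000707). Rragc, a Rag GTPase of the mTORC1 pathway, rose by 0.79, the receptor gene Optn by 0.74 and the LC3 gene Map1lc3b by 0.55 on the log2 scale against control (limma adjusted p = 0.00133, 0.00371 and 0.00254), and Map1lc3b is among the 3 on chromosome 8. Prkaa1, a catalytic subunit of AMPK, rose by 0.48 (limma adjusted p = 0.00264). Calcoco2, which in human cells encodes the galectin-8 partner NDP52, was at 0.50 (limma adjusted p = 0.0444), and this call was lost in 7 of 9 fits without 1 library. The 13 calls became 8 without control library 1, and the block gave 16 rises and 5 falls.

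Against Taz KO, 7 of the 32 rose and 1 fell (median 0.12), where 6.42% of all tested genes were called higher and 7.45% lower. None of the 7 was on chromosome 8. Besides Sqstm1, Rragc was at 0.66 and Optn at 0.66 (limma adjusted p = 0.00615 and 0.0117), Calcoco2 was at 0.63 and the related Calcoco1 at 0.41 (limma adjusted p = 0.0302 and 0.0178), and the fall was that of the ESCRT gene Chmp2a (-0.39, limma adjusted p = 0.0178, but 0.214 with quantile normalization). Of the 9 fits that each leave out 1 library, 5 lost the Calcoco2 call, 3 that of Chmp2a, 2 that of Calcoco1 and 1 that of Optn. The Sqstm1 and Rragc calls were kept in all 9. The 8 calls became 2 without Taz KO library 1, 4 without Taz KO library 3 or double KO library 3, and 5 without double KO library 1. The block gave 14 rises and 4 falls, and the fit without the libraries numbered 2 gave 11 and 5. Quantile normalization gave 11 rises and 0 falls. Taz KO against control gave 1 call, a rise of Vps4a on chromosome 8 (0.40, limma adjusted p = 0.033), where all tested genes of that chromosome had a median of 0.35, and a median of the 32 of 0.00. That call was lost in 8 of 9 fits without 1 library, all but the fit without double KO library 2, while the block gave 2 rises.

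**Figure D4:**
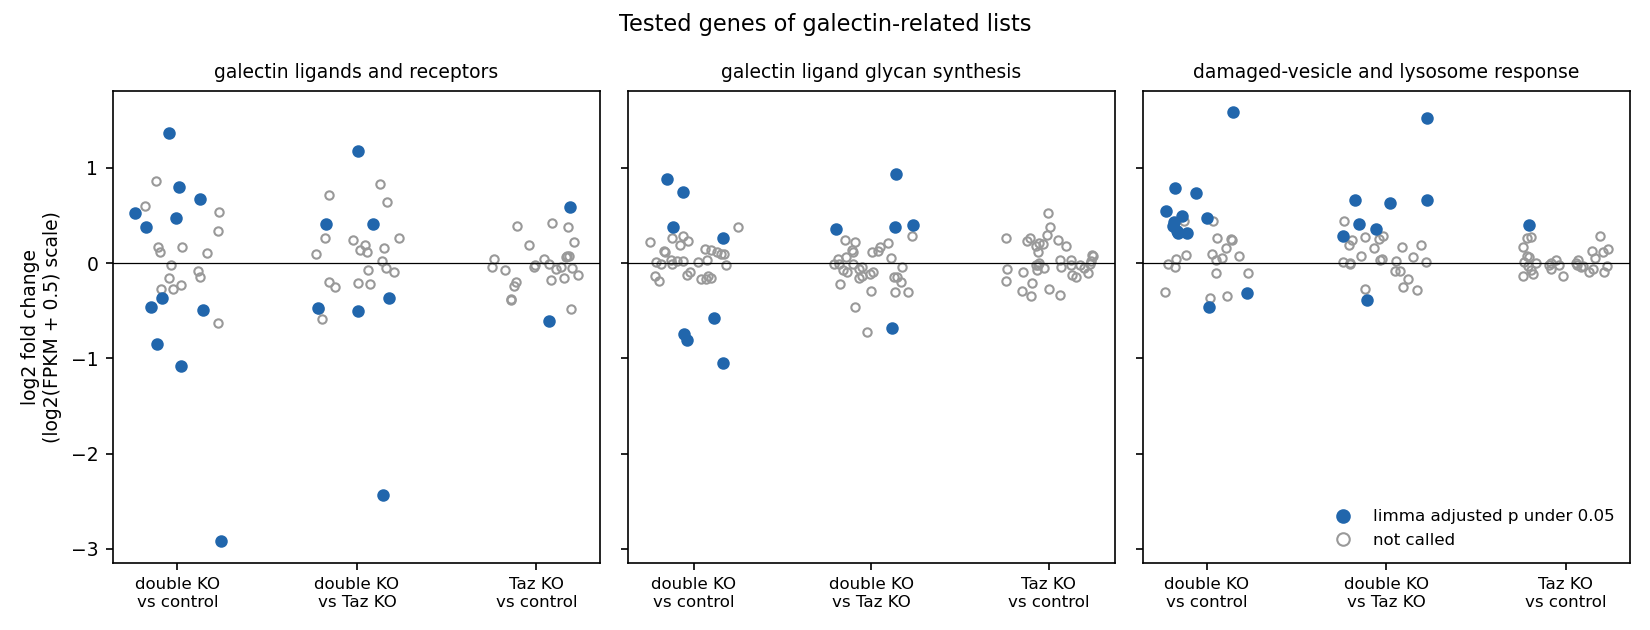
Log2 fold changes of all tested genes of 3 galectin-related lists in each comparison, on the log2(FPKM + 0.5) scale; filled points passed a limma adjusted p of 0.05 and open points did not. Bcam (-2.92 and -2.44) and Sqstm1 (1.59 and 1.53) are the points farthest from 0 in the left and right panels.

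Markers of cells known for particular galectins were set beside these values. Of the macrophage markers, Lyz2 and C1qb were listed at 0 in all libraries and 1 of 9 in the table, Cd68, was tested. Their summed FPKM was 12.0 to 30.5 in double KO, 8.02 to 21.3 in Taz KO and 9.61 to 19.04 in control. Fibroblast markers Fap, Dcn, Lum and Postn were listed at 0 throughout, and their list summed to 17.1 to 38.0 FPKM in double KO, 13.6 to 36.7 in Taz KO and 21.6 to 39.6 in control. Intestinal markers Fabp1, Fabp2, Alpi and Apoa4 were at 0, and only Cdx1 of that list was tested and rose in double KO; its sums were 17.3 to 26.8, 12.2 to 14.6 and 11.7 to 13.4 FPKM in double KO, Taz KO and control. For keratinocytes, the cells best known for galectin-7, Dsg3 and Ivl were at 0 and Krt5, Krt14 and Trp63 averaged under 0.02 FPKM in each group. Sfn rose in double KO against both other groups. Krtdap averaged 7.79 FPKM in double KO, 0.925 in Taz KO and 0.233 in control, so it passed the filter through the double KO group. Krt10, the other tested marker, averaged 1.26 FPKM in double KO, 1.25 in Taz KO and 1.55 in control and was not called, although its double KO values lay below all control values. The list summed to 148 to 194 FPKM in double KO, 90.8 to 110.3 in Taz KO and 73.5 to 91.8 in control. Most of this was Sfn, which averaged 166.9, 101 and 82.7 FPKM in these groups. Among trophectoderm markers 3 of 6 tested rose against both other groups (Gata2, Krt8 and Tfap2c). Over all tested genes 12.4% were called higher against control and 6.42% against Taz KO. Eomes, Krt18 and Krt7 were tested and not called. Eomes and Krt18 averaged highest in double KO, and Krt7 lowest, at 1.42 FPKM against 1.93 in Taz KO and 3.30 in control. Cdx2, Gata3, Elf5 and Hand1 averaged at most 0.378 FPKM in any group. The trophectoderm list summed to 119.5 to 165 FPKM in double KO, 74.3 to 97.9 in Taz KO and 69.0 to 78.4 in control. Primitive endoderm markers summed to 2.63 to 5.12 FPKM in double KO, 1.97 to 5.01 in Taz KO and 3.31 to 4.74 in control. In bulk RNA more cells of a type and more RNA per cell cannot be told apart. The part of these markers in the galectin values was not tested.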

How the data were processed

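The deposited table, computed by the authors, holds FPKM values of 38940 genes in 9 libraries and no column of another sample. Per the labels' protocols, input was 1 µg of RNA (integrity number above 7), mRNA was selected by poly(A), and directional libraries were sequenced for 75 cycles. Per the submitters' processing notes, the tools included DESeq2, HTSeq 0.6.1 and TopHat2 2.1.1 and the build was mm10, with no role stated. Annotation release, strand setting and filters: not given in the sources used here.

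Within each gene the FPKM values were whole multiples of the worth of 1 read, within 0.001, for 24621 of 24621 genes above 0, which gave the reads per value. These are the smallest whole numbers that match. For a gene above 0 in a single library a match was certain in advance, and for a gene above 0 in few libraries nearly so. The count of matching genes therefore includes genes that could not fail. From library to library the worth of 1 read equalled an inverted median-of-ratios size factor of the reads, so the columns were already on a common scale.

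For the 11674 genes with a mean of at least 1 FPKM, log2(FPKM + 0.5) was analysed by limma (version 3.58.1, R 4.3.3). Group means were fitted to all 9 libraries with 6 residual degrees of freedom and trended variances. Tests were two-sided with Benjamini-Hochberg adjustment over all tested genes and a threshold of 0.05. Log2 fold changes on this scale understate the change of low genes. The labels do not say that replicates were separate cultures, so p-values reflect only how far these libraries spread, possibly for technical reasons. No replicate pair agreed within sampling noise (chi-square per gene 5.69 to 46.1).

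Replicate numbers come from the titles, without saying what they mark. Once group means were removed, the 9 pairs of libraries sharing a number correlated at 0.19 to 0.71 and the 18 other pairs at -0.69 to 0.39, so the numbers were taken to pair libraries, and a fit blocked on the number is given where it changed a count by over 1.5 times.

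The members, lists and tests were chosen with earlier results of these data known. Named list genes were, per list and comparison, the 6 called genes of largest absolute change and any with a log2 change of at least 1; smaller calls are only counted. Neighbours were the nearest protein-coding genes, and the 5 genes most like a member were ranked by correlation. The code was tested on simulated data. Alternatives were pseudocounts of 0.1 and 1, no filter, a replicate block, quantile normalization, voom on the recovered reads with TMM scaling, and leaving out each library. Leaving out the libraries numbered 2, and the E-box, GC box and TATA motifs, were added after seeing the data.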

Additional observations from a re-analysis of the deposited data

How the results depend on the processing

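The log2 fold changes of the 6 tested galectins kept their direction in both double KO comparisons under every alternative run, except Lgals4, which ranged from -0.46 to 0.08 against control and from -0.48 to 0.06 against Taz KO in the fits without 1 library. Only 1 of these values moved by more than the spread between replicates: Lgals1 against Taz KO was 2.07 without the libraries numbered 2, where it was 1.81 with them, and 1.65 to 2.01 without 1 library. None of the 6 was called in Taz KO against control under any alternative, with adjusted p from 0.108 to 1.

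Counts of calls depended on the fit. Pairing same-numbered libraries through a replicate block, limma called 6112 genes in double KO against control, 4947 in double KO against Taz KO and 1381 in Taz KO against control, where the unpaired fit called 2948, 1620 and 150. The block changed no call of a galectin in Taz KO against control. In the order of those comparisons, it called 20, 18 and 9 ligand and receptor genes and 21, 18 and 2 damaged-vesicle genes, and for glycan synthesis 12 against Taz KO and 5 in Taz KO against control. Without the libraries numbered 2 the totals were 4889, 4277 and 423, and double KO against Taz KO gave 17 ligand, 11 glycan and 16 vesicle genes, with 1 glycan gene in Taz KO against control. Without a filter 0 ligand genes were called in Taz KO against control, and 1 galectin relative (Lgals3bp) in each double KO comparison. The causes were not tested.

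Without 1 library, the totals were 1505 to 3568, 482 to 2648 and 11 to 230. In the same order, counts were 8 to 13, 3 to 9 and 0 to 2 for ligands, 6 to 10, 2 to 7 and 0 to 0 for glycan synthesis, and 8 to 16, 2 to 12 and 0 to 1 for damaged-vesicle genes. Without control 1, control 3 or double KO 3, the total of 2948 became 1505, 1921 and 1830. The total of 1620 became 1024 without control 1, 482, 2648 and 623 without Taz KO 1, 2 and 3, and 759 and 627 without double KO 1 and 3. The total of 150 became 11, 22 and 84 without control 1, 2 and 3, 70, 97 and 17 without Taz KO 1, 2 and 3, and 72 and 230 without double KO 1 and 2. Depth limits Lgals2 (2 to 4 reads), Lgals7 (11 to 78) and Lgals4 (32 to 107).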
